A study of Homo sapiens with 12 samples.

Results

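The microRNAs described here are the mature products of the miR-10 and miR-196 hairpins, which lie inside the HOX gene clusters: hsa-miR-10a-5p, hsa-miR-10a-3p, hsa-miR-10b-5p, hsa-miR-10b-3p, hsa-miR-196a-5p and hsa-miR-196b-5p (written below without the species prefix). They are 6 of the 2588 mature miRNA entries of the deposited table and were taken by name. All were counted in HEK293T cells, an established line from human embryonic kidney with the large T antigen of SV40, transiently transfected with control siRNA or with siRNA that targets Tudor-SN. The 12 libraries form 4 groups of 3, a control group and a Tudor-SN siRNA group in each of 2 runs. Run 1 started from RNA enriched for short molecules, was gel-purified and was read on a NextSeq. Run 2 was labelled as total RNA with size selection on a Pippin Prep, and was read on a HiSeq, so RNA fraction, size selection and sequencer change together between the runs and cannot be told apart. No label used here gives the siRNA sequences or the time after transfection. Knockdown of SND1, the gene for Tudor-SN, was not measured in these small RNA libraries.

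HOX genes encode homeobox transcription factors that give position along the body axis, and the miRNAs between them are often expressed along with their neighbours. A miRNA hairpin is cut into a duplex, from which the more abundant arm (the guide, here the 5p arms) is loaded into Argonaute and the other arm (the passenger, here the 3p arms) is mostly lost. A guide finds mRNAs mainly through its seed, bases 2 to 8 counted from its 5′ end. miR-196 directs cleavage or repression of HOX mRNAs such as HOXB8, and miR-10 is known for repression of HOX genes and, for miR-10b, for its role in invasion of breast cancer cells. Tudor-SN is a nuclease of RNA-induced silencing complexes, and the study asked which mature miRNAs it degrades, at CA and UA dinucleotides in the authors' model of this decay.

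Mature sequences from RefSeq (GRCh38.p14) were found for 5 of the 6 miRNAs and are shown because the comparisons below turn on arms of the same hairpin and on paralogs that differ little. Capitals mark the seed, and each sequence runs 5′ to 3′.
miR-10a-5p: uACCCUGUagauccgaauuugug
miR-10a-3p: cAAAUUCGuaucuaggggaaua
miR-10b-3p: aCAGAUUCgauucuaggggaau
miR-196a-5p: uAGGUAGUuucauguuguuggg
miR-196b-5p: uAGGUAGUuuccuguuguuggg
miR-196a-5p and miR-196b-5p share the seed AGGUAGU, which was found in 0 further matched entries of the table, so they are expected to reach the same targets as far as the seed sets them. They differ at position 12 from the 5′ end (A12C, with the miR-196a base first). The seeds of miR-10a-5p, miR-10a-3p and miR-10b-3p were each found in 0 other matched entries. miR-10b-5p is the member without a matched sequence. Whether it shares the seed of miR-10a-5p, and how many bases separate the paralogs, was therefore not checked. The 3p arms of miR-10a and miR-10b differ by 5 edits and have unlike seeds. miR-10a-5p lies 3 edits from miR-100-5p and 4 edits from miR-99a-5p, its relatives outside the HOX clusters. The sources used here do not give how reads that match several of these miRNAs were assigned, so the separate values of miR-10a and miR-10b, and of miR-196a and miR-196b, are uncertain where their reads could be exchanged.

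The hairpins keep the positions of their HOX neighbours (GRCh38, GENCODE release 29). MIR10A, on the minus strand at chr17:48579838-48579947, lies in an untranslated exon of a HOXB4 transcript and in an intron of HOXB3. MIR10B, on the plus strand at chr2:176150303-176150412, lies in an intron of HOXD3, and HOXD4 starts 0.919 kb downstream. miR-196a-5p has a pair of source hairpins with the same mature sequence, so its counts cannot be divided between them. MIR196A1 (minus strand, chr17:48632490-48632559) lies in an intron of a HOXB7 transcript, and HOXB9 follows 6.203 kb downstream. MIR196A2 (plus strand, chr12:53991738-53991847) lies in an intron of a HOXC6 transcript, with the end of HOXC10 at -1.459 kb and the start of HOXC9 at 3.157 kb from the hairpin start. MIR196B (minus strand, chr7:27169480-27169563) overlaps an exon of a HOXA9 transcript and has the end of HOXA10 at -1.028 kb. The miR-10 hairpins thus sit beside HOX4 genes, and the miR-196 hairpins beside HOX9 or HOX10 genes.

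**Figure D1:**
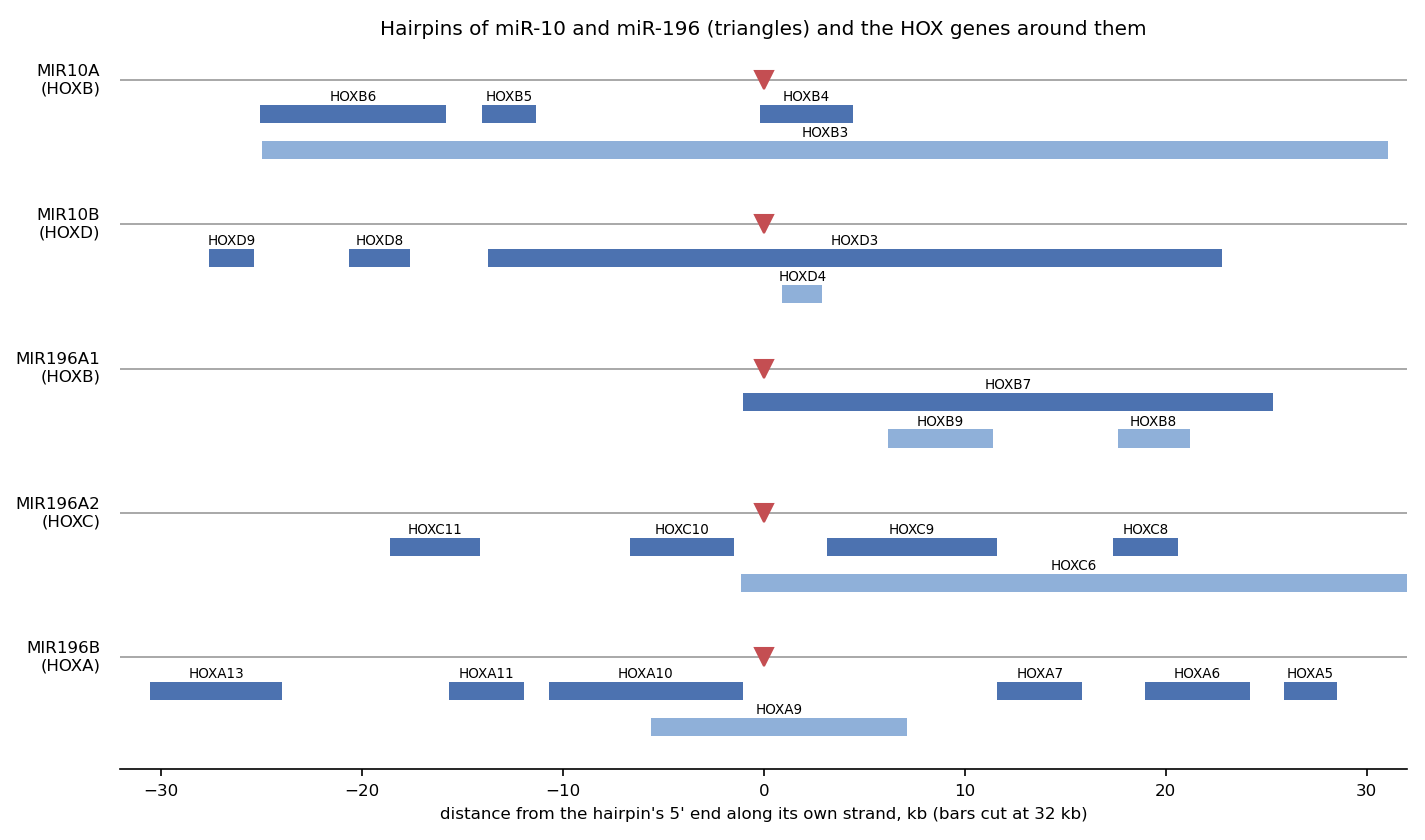
HOX genes around each hairpin, drawn by distance in kb from the hairpin start along its own strand. Bars are protein-coding HOX genes on the same strand, drawn over all their annotated transcripts, in lighter shade where genes overlap, and triangles mark the hairpins. HOXB4 and HOXD4 lie beside the miR-10 hairpins, while HOX9 genes and HOX10 genes where present flank the miR-196 hairpins.

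CA and UA dinucleotides were located in these sequences, counting as internal those with at least 5 bases on each side. miR-10b-5p, without a matched sequence, could not be searched. miR-10a-5p has UA at bases 8 and 9. miR-10a-3p has UA at bases 9 and 10 and at bases 13 and 14, and miR-10b-3p has UA at bases 14 and 15. miR-196a-5p has CA at bases 11 and 12, which the A12C difference removes, so that miR-196b-5p has 0 internal CA or UA. An internal CA or UA is common: it occurs in 75.7% of the 1038 RefSeq mature miRNAs of 22 nt and in 78.2% of the 344 of 23 nt, the length of miR-10a-5p. Among miRNAs of these lengths that could be tested in run 2, the shares were 77.3% of 194 and 87.1% of 70. These matches describe letters and not sites of cleavage.

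Mature miRNA counts per library were 222452 to 270191 with control siRNA and 658568 to 1092713 with Tudor-SN siRNA in run 1, and 927727 to 1653077 with control siRNA and 1710708 to 3140214 with Tudor-SN siRNA in run 2. Depth therefore moved with the siRNA in both runs, and its part in the results was not tested. A count of 0 allows up to 3 counts, which is 2.75 to 13.5 CPM (counts per 1000000 counts) in run 1 and 0.955 to 3.23 CPM in run 2, covering counting error only. Replicate libraries differed by a chi-square per degree of freedom of 2.75 to 11.1, except that run 2 Tudor-SN replicate 3 stood at 44.3 and 25.6 from the other two, and values without it are given where it changes a call. Of 10 markers of muscle, heart, liver, blood and brain, 4 (miR-206, miR-208b-3p, miR-142-3p and miR-223-3p) had 0 counts in all libraries. The summed level of the 10 was 4.68 to 28.2 CPM with control siRNA and 78.8 to 95.4 CPM with Tudor-SN siRNA in run 1, and 0 to 1.90 CPM and 4.72 to 10.6 CPM in run 2. miR-1-3p of muscle made up most of the sum in run 1 (8 control counts against 227) and miR-133a-3p in run 2 (1 count against 50). miR-122-5p, miR-124-3p, miR-451a and miR-499a-5p had at most 2 counts in a library. The part of these markers in the results was not tested. These sums are small beside the levels of the HOX guides given next, but not beside all the 3p arms. In the run 1 Tudor-SN libraries they exceeded miR-10b-3p (13.4 to 20.5 CPM) and lay below miR-10a-3p (131 to 167 CPM). miR-1-3p was itself called higher in run 1 (log2 fold change 2.98, SE 0.42, edgeR quasi-likelihood test, adjusted p = 2.46e-11). It was above the filter's cutoff only in the Tudor-SN libraries, with 5, 2 and 1 counts in the controls. Nothing is therefore drawn from that test.

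HEK293T cells were dominated by the miR-10 guides. miR-10a-5p and miR-10b-5p together took 72.8% ± 0.686 of run 1 counts with control siRNA and 68.7% ± 0.253 with Tudor-SN siRNA (SD, n = 3 libraries in each group here and below). In run 2 they took 53.2% ± 1.53 and 42.7% ± 2.65. miR-10a-5p ranked 1 in all 12 libraries, and miR-10b-5p ranked 2 except in the run 2 Tudor-SN libraries, where it ranked 3. The miR-196 guides came next among these miRNAs, at ranks 18 to 33 in run 1 and 47 to 60 in run 2. The 3p arms were far rarer, with miR-10a-3p at ranks 76 to 122 and miR-10b-3p at ranks 169 to 268. In the controls the order of levels was miR-10a-5p, miR-10b-5p, miR-196b-5p, miR-196a-5p, miR-10a-3p and miR-10b-3p in each run. Library ranges of neighbours in that order did not overlap within any control group. Levels are CPM scaled by TMM, a factor per library that puts the bulk of miRNAs near no change, so each change is relative to the other miRNAs. Ligation of adapters differs between RNA sequences, so levels of different miRNAs compare their read yield and not their molecule numbers.

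**Figure D2:**
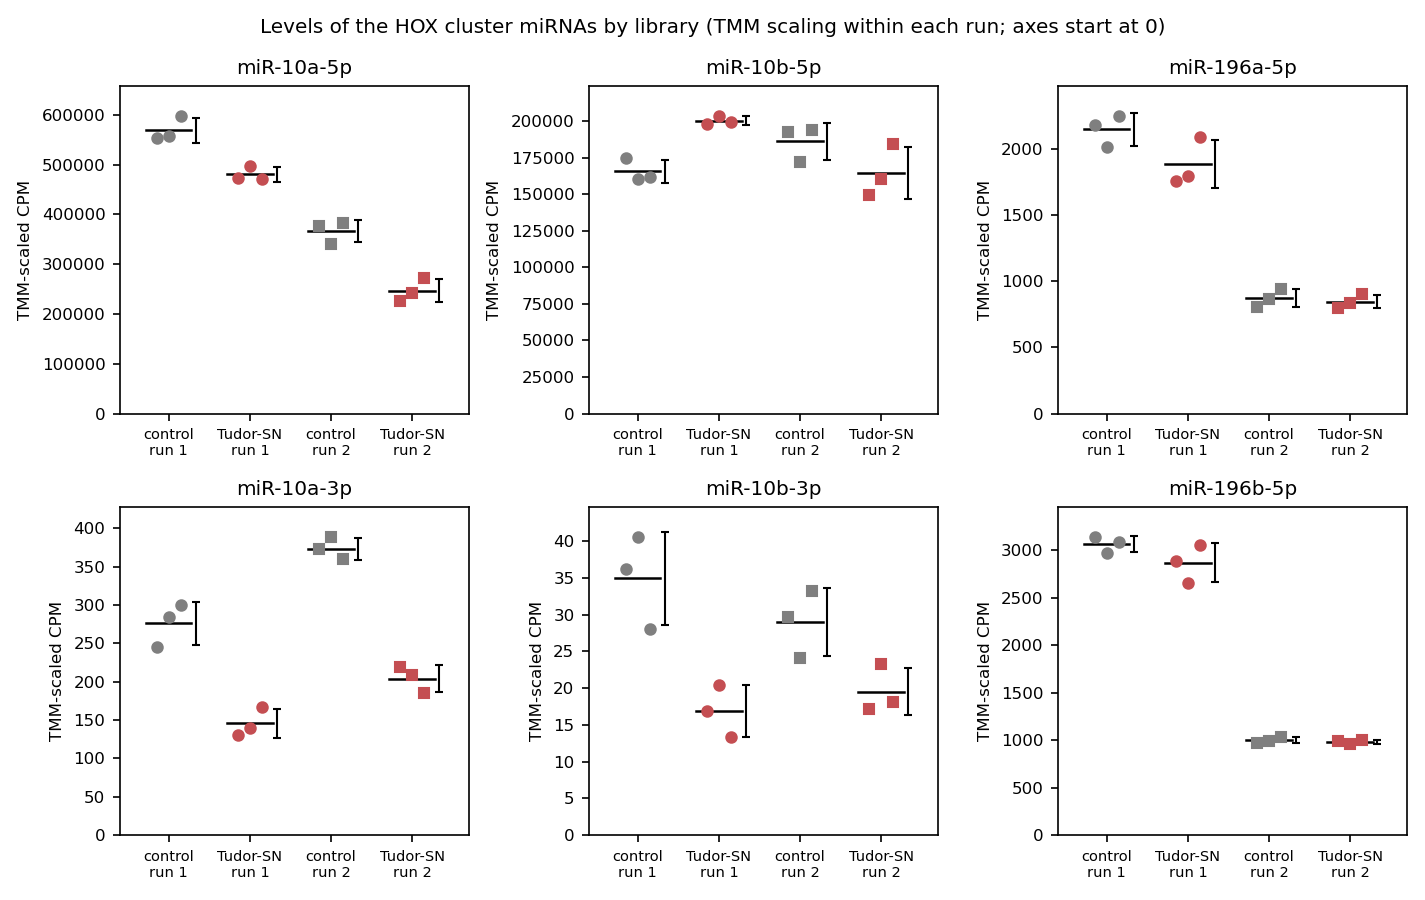
TMM-scaled CPM of the 6 miRNAs in each library (points), by run and siRNA, with the mean and SD of each group of 3 libraries, on linear axes that start at 0. Tudor-SN libraries lie below the controls in both runs for miR-10a-5p, miR-10a-3p and miR-10b-3p. The groups overlap in both runs for miR-196a-5p and miR-196b-5p, and in run 2 for miR-10b-5p.

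miR-10a-5p, the most abundant miRNA of these cells, was lower with Tudor-SN siRNA in both runs. Replicates 1 to 3 of run 1 stood at 552799, 557503 and 598425 CPM with control siRNA and at 473169, 498024 and 470911 CPM with Tudor-SN siRNA. Those of run 2 stood at 376946, 341647 and 382162 CPM with control siRNA and at 226552, 241514 and 273184 CPM with Tudor-SN siRNA. Every Tudor-SN library lay below every control of its run. By edgeR's quasi-likelihood test the log2 fold change was -0.24 in run 1 (SE 0.04, adjusted p = 1.61e-07) and -0.57 in run 2 (SE 0.07, adjusted p = 8.18e-06). The level fell by 15.6% in run 1, and it fell by 32.7% in run 2. Over all miRNAs tested the median was -0.05 in run 1 and -0.02 in run 2. In such bulk libraries a lower level in each cell and fewer cells that make the miRNA cannot be told apart. The run 1 call ended with no filter on low counts (-0.05, adjusted p = 0.726), which moved the median of all tested miRNAs to 0.14, and with limma on the deposited normalized values (-0.12, adjusted p = 0.487). The run 2 call held under every alternative tried, from -0.64 to -0.45.

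miR-10b-5p, its paralog from the HOXD cluster, rose in run 1 and did not pass in run 2. In run 1 it stood at 174660, 160619 and 162007 CPM with control siRNA and at 198372, 203845 and 199578 CPM with Tudor-SN siRNA, with no overlap. The log2 fold change was 0.28 (SE 0.05, edgeR adjusted p = 1.74e-06), a 1.21-fold rise, and it was called under every alternative tried. In run 2 it stood at 192615, 171872 and 194305 CPM against 149654, 160487 and 184401 CPM, and the groups overlapped. The log2 fold change there was -0.18 (SE 0.08, adjusted p = 0.0631). That value passed as a decrease without the Tudor-SN replicate 3 that stood apart (-0.26, adjusted p = 0.00135) and without control replicate 2 (-0.23, adjusted p = 0.0159).

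The paralogs therefore parted, which their ratio shows free of library scaling. In run 1 there were 3.16, 3.47 and 3.69 counts of miR-10a-5p per count of miR-10b-5p with control siRNA and 2.39, 2.44 and 2.36 with Tudor-SN siRNA. In run 2 there were 1.96, 1.99 and 1.97 with control siRNA and 1.51, 1.5 and 1.48 with Tudor-SN siRNA. The ratio was lower in all 6 Tudor-SN libraries than in any control of the same run. Over both runs the ratio fell by 0.46 on the log2 scale, a 1.37-fold decrease (exact two-sided permutation test within runs, p = 0.005, the smallest that its 400 arrangements can give, and adjusted p = 0.0133 over the 4 ratios tested here). Within runs the difference was -0.52 in run 1 and -0.39 in run 2, and an exact permutation test of 3 libraries against 3 gave its smallest possible p of 0.1 in each. Without run 2 Tudor-SN replicate 3 the difference over both runs was -0.45. The control ratio itself was 3.44 ± 0.265 in run 1 and 1.97 ± 0.0157 in run 2, so the difference between the runs' controls was larger than the difference between siRNAs in either run.

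**Figure D3:**
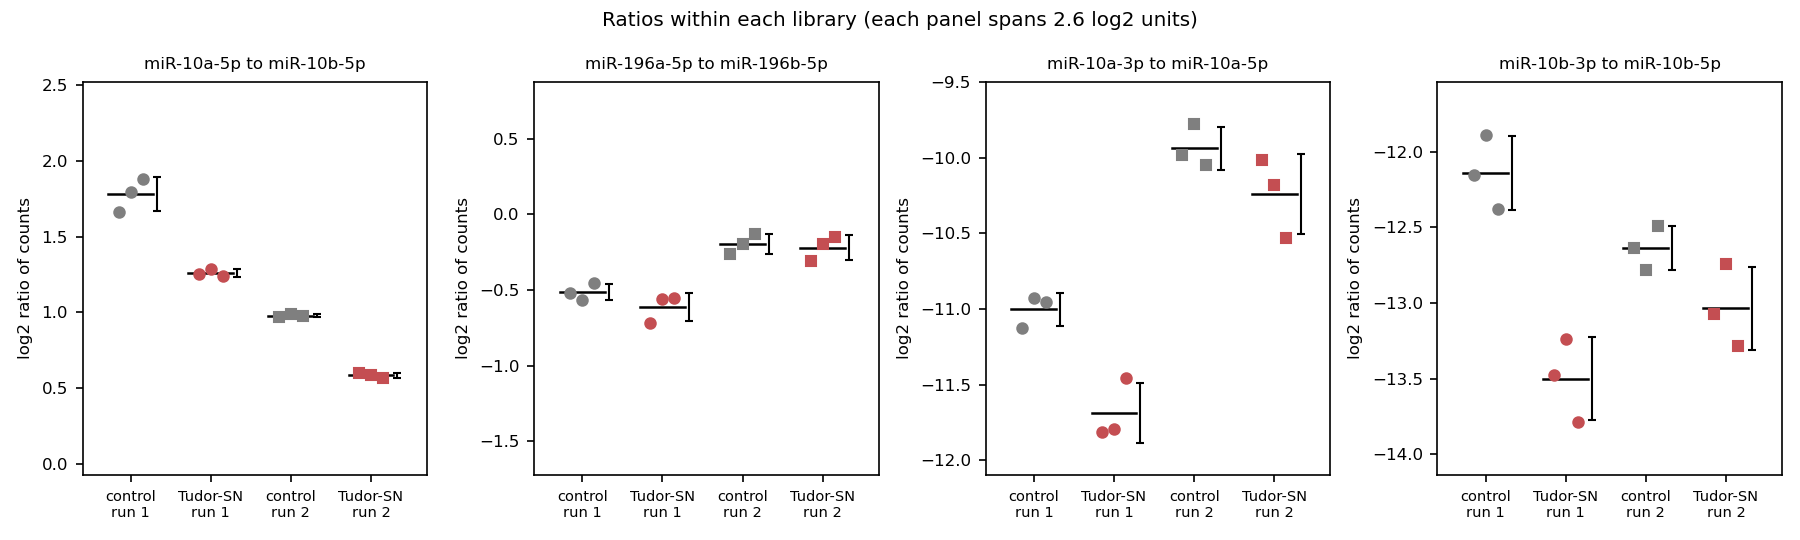
Log2 ratios of counts in each library (points), by run and siRNA, with the mean and SD of each group of 3 libraries. Panels span the same number of log2 units. The ratio of miR-10a-5p to miR-10b-5p is lower in every Tudor-SN library than in the controls of its run, while the groups overlap for miR-196a-5p to miR-196b-5p.

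The passenger arm of miR-10a was also lower in both runs, and over both runs by more than its guide. With control siRNA in run 1, miR-10a-3p had 61, 77 and 64 counts (245, 284 and 300 CPM), and the deeper Tudor-SN libraries had 147, 109 and 112 counts (131, 140 and 167 CPM). For run 2 these were 326, 644 and 379 counts (373, 388 and 360 CPM) with control siRNA and 740, 618 and 315 counts (219, 208 and 185 CPM) with Tudor-SN siRNA. The groups did not overlap in CPM in either run. The log2 fold change was -0.93 (SE 0.18, edgeR adjusted p = 1.6e-06) in run 1 and -0.87 (SE 0.09, adjusted p = 5.86e-07) in run 2, decreases of 1.91-fold and 1.82-fold. Both calls held under every alternative tried, with ranges of -1.06 to -0.73 (run 1) and -0.92 to -0.74 (run 2).

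miR-10b-3p, the passenger arm of miR-10b, was rare and passed in neither run alone. With control siRNA it had 9, 11 and 6 counts in run 1 (36.2, 40.6 and 28.1 CPM), and with Tudor-SN siRNA 19, 16 and 9 (16.9, 20.5 and 13.4 CPM). For run 2 these were 26, 40 and 35 counts (29.7, 24.1 and 33.2 CPM) against 58, 69 and 31 (17.2, 23.3 and 18.2 CPM). All Tudor-SN libraries lay below the controls of their run, with 24.1 and 23.3 CPM the closest values in run 2. The log2 fold changes were -1.04 (SE 0.48, edgeR adjusted p = 0.0672) and -0.53 (SE 0.22, adjusted p = 0.0552). In run 1 only the controls, where it was higher, were above the filter's cutoff, so nothing is drawn from that test. Without each run 1 Tudor-SN library in turn it was not tested. With no filter the run 1 value was -0.85 (edgeR adjusted p = 0.338). Over both runs, with the run as a factor, the value was -0.57 (SE 0.20, adjusted p = 0.0188). That call ended with no filter on low counts (-0.44) and without run 2 control replicate 3 (-0.41), Tudor-SN replicate 1 (-0.43) or Tudor-SN replicate 3 (-0.41). With limma on the deposited values the run 1 difference passed (-0.84, adjusted p = 0.0134), but under the same filter. By edgeR that of run 2 passed without control replicate 2 (-0.68) or Tudor-SN replicate 2 (-0.68).

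Set against its own guide, each passenger arm was lower with Tudor-SN siRNA. miR-10a-3p had 4.88 ± 0.354 counts per 10000 counts of miR-10a-5p with control siRNA in run 1 and 3.05 ± 0.437 with Tudor-SN siRNA, and 10.2 ± 1.02 against 8.36 ± 1.47 in run 2. miR-10b-3p had 2.24 ± 0.383 counts per 10000 counts of miR-10b-5p against 0.874 ± 0.165 in run 1, and 1.58 ± 0.156 against 1.21 ± 0.233 in run 2. In run 2 the groups overlapped for both hairpins. Over both runs the log2 ratio of passenger to guide fell by 0.49 for miR-10a and by 0.88 for miR-10b (exact permutation within runs, p = 0.01 and adjusted p = 0.0133 for each). In run 1 alone the differences were -0.69 and -1.36 (exact permutation p = 0.1 for each) and in run 2 alone -0.30 and -0.40 (exact permutation p = 0.2 for each), so the pooled values rest more on run 1. A lower value for the rarer arm was common among hairpins, in a description chosen after the values were seen. Of 35 hairpin names with both arms tested in run 1, the rarer arm had the lower log2 fold change in 60% (median difference -0.19), and 11 of the 35 were at or below miR-10a (-0.69). In run 2 the share was 60.5% of 86 (median -0.14), and 39 were at or below miR-10a (-0.30). By the same measure miR-10b was lower than miR-10a, at -1.32 in run 1 and -0.36 in run 2. The place of miR-10b among the hairpins was not counted.

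The miR-196 guides, which share a seed, did not pass in either run. miR-196a-5p stood at 2181, 2009 and 2248 CPM with control siRNA in run 1 and at 1758, 1795 and 2088 CPM with Tudor-SN siRNA. In run 2 it stood at 807, 867 and 943 CPM against 798, 837 and 900.5 CPM. Its log2 fold changes were -0.19 (SE 0.11, edgeR adjusted p = 0.174) and -0.05 (SE 0.07, adjusted p = 0.586), and without run 1 Tudor-SN replicate 3 the first passed (-0.30, adjusted p = 0.0432). miR-196b-5p stood at 3135, 2971 and 3086 CPM against 2888, 2650 and 3059 CPM in run 1, and at 968, 995 and 1031 CPM against 988, 960 and 1001 CPM in run 2. Its log2 fold changes were -0.10 (SE 0.11, adjusted p = 0.519) and -0.02 (SE 0.06, adjusted p = 0.766). For both miRNAs the groups overlapped in each run. The ratio of miR-196a-5p, which has the internal CA shown above, to miR-196b-5p, which lacks it, was 0.70 ± 0.0264 against 0.656 ± 0.0411 in run 1 and 0.873 ± 0.0405 against 0.860 ± 0.0476 in run 2. Its log2 difference over both runs was -0.06 (exact permutation within runs, p = 0.225, unchanged by the adjustment), which does not show that the ratio was the same.

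The counts of calls among the 6 are read against the share called over the whole table. In run 1, where 44.2% of 224 tested miRNAs were called (21.4% higher and 22.8% lower), 1 of the 6 was higher (miR-10b-5p) and 2 were lower (miR-10a-5p and miR-10a-3p), a share near that of all tested, with a median log2 fold change of -0.22 against -0.05. In run 2, where 50.9% of 383 were called (24% higher and 26.9% lower), 0 of 6 were higher and 2 were lower (again miR-10a-5p and miR-10a-3p), with a median of -0.35 against -0.02. None of the 6 was higher in run 2 at an unadjusted edgeR p under 0.05 (0) or by DESeq2 (0). In the fit over both runs, where 49.5% of 378 were called (27% higher and 22.5% lower), 0 of 6 were higher by edgeR (0 at an unadjusted p under 0.05, 1 by DESeq2, miR-196b-5p at 0.16 with adjusted p = 0.0335) and 3 were lower (miR-10a-5p, miR-10a-3p and miR-10b-3p). In that fit miR-10a-5p was at -0.31 (SE 0.06, edgeR adjusted p = 0.000326), a call that ended with RLE scaling and with DESeq2 (-0.19 in each), with scaling that left miR-10a-5p out (-0.24) and on leaving out any 1 of the run 1 libraries other than control replicate 1 (-0.26 to -0.22). miR-10b-5p was at 0.15 (SE 0.07, adjusted p = 0.102) and passed as higher with RLE scaling (0.27), with no filter (0.28) and on leaving out any 1 of the run 2 libraries other than control replicate 2 (0.20 to 0.28). The values of miR-10a-3p (-0.79, SE 0.10, adjusted p = 6.67e-07) held under every alternative tried.

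**Figure D4:**
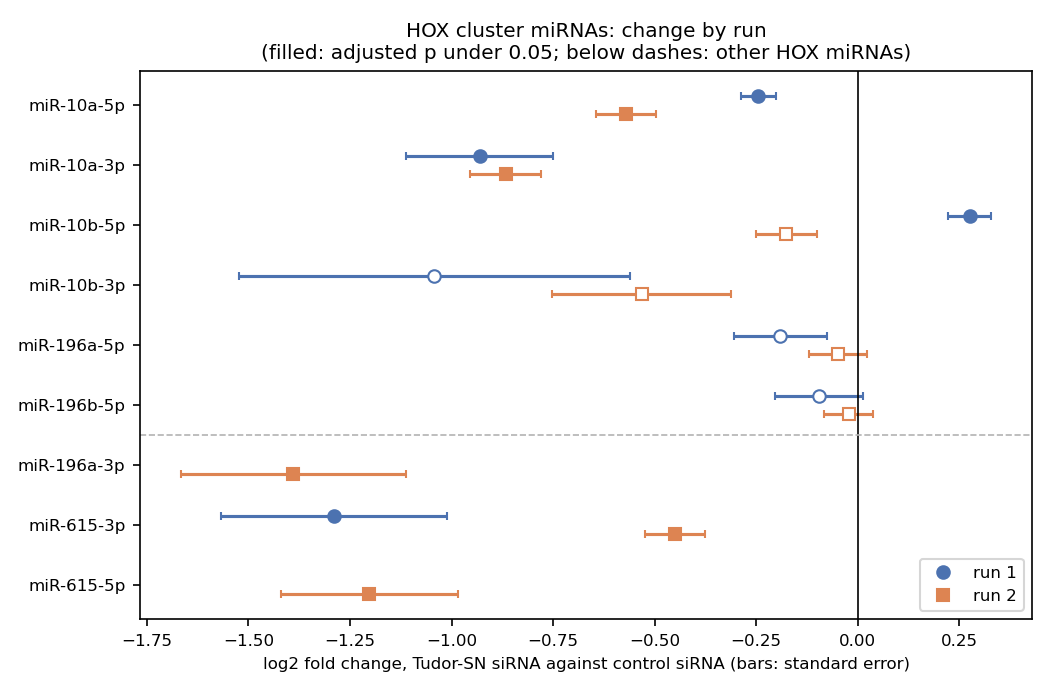
Log2 fold change (Tudor-SN siRNA against control siRNA) with its standard error in run 1 and in run 2. The 6 miRNAs stand above a dashed line. Below it are miR-196a-3p, miR-615-3p and miR-615-5p, where tested. miR-10a-3p lies below 0 in each run (-0.93 and -0.87). miR-10b-5p lies above 0 in run 1 (0.28) and below 0 in run 2 (-0.18), and the miR-196 guides lie between -0.19 and -0.02.

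**Figure D5:**
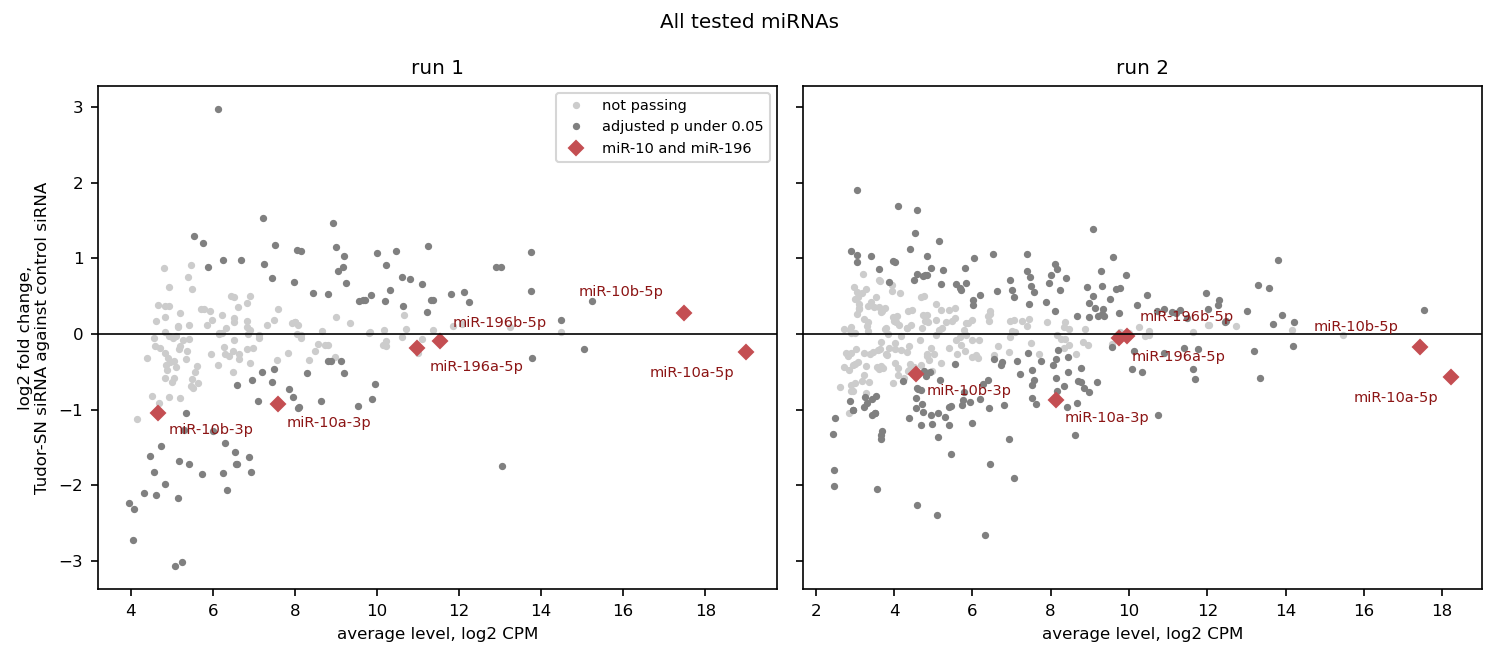
Log2 fold change against mean level (log2 CPM) for every miRNA tested in run 1 and in run 2, with the 6 HOX miRNAs named. miR-10a-5p and miR-10b-5p lie at the high end of the level axis, on either side of 0 in run 1 and both below 0 in run 2.

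Further mature miRNAs from the HOX clusters gave values mostly in run 2, where their counts were high enough. miR-196a-3p, the passenger arm of miR-196a, had 20, 33 and 19 counts with control siRNA in run 2 and 33, 19 and 10 in the deeper Tudor-SN libraries. Its level was 20.3 ± 2.44 CPM with control siRNA and 7.35 ± 2.12 CPM with Tudor-SN siRNA (log2 fold change -1.39, SE 0.28, edgeR adjusted p = 0.000541). miR-196b-3p, with 6, 12 and 6 counts against 10, 10 and 4, was below the filter and stood at 6.60 ± 0.805 and 2.89 ± 0.516 CPM. MIR615 (plus strand, chr12:54033950-54034045, in an intron of HOXC5) gave miR-615-3p, which fell from 509 ± 22.4 to 372 ± 18.2 CPM in run 2 (-0.45, SE 0.07, adjusted p = 9.4e-05), and miR-615-5p, which fell from 38 ± 7.34 to 16.6 ± 3.41 CPM (-1.20, SE 0.22, adjusted p = 0.000225). In run 1 miR-615-3p fell from 106 ± 33.5 to 43.1 ± 3.93 CPM (-1.29, SE 0.28, adjusted p = 1.7e-05), and the other 3 arms had at most 6 counts in a library. The 1 tested arm of run 1 and all 3 tested arms of run 2 were thus lower, where 22.8% of tested miRNAs were lower in run 1 and 26.9% in run 2. In run 2 miR-196a-3p was above the filter's cutoff in all controls but not in all Tudor-SN libraries. Its place in that count therefore depended on the group where it was higher. The miR-196a passenger passed in run 2 while its guide did not (-0.05), a difference between arms that was not tested for miR-196.

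Relatives of miR-10 outside the HOX clusters moved in both directions. Of miR-99a-5p, miR-99b-5p, miR-100-5p, miR-125a-5p and miR-125b-5p, 5 could be tested in run 1, with 2 higher and 2 lower, and 4 in run 2, with the same 2 higher and 2 lower, where 44.2% of all tested miRNAs were called in run 1 and 50.9% in run 2. miR-99a-5p, close in sequence to miR-10a-5p, was at -0.32 (SE 0.09) in run 1 and -0.69 (SE 0.08) in run 2 on the log2 scale, and miR-99b-5p, further from it at 6 edits, was at 1.09 (SE 0.09) and 0.38 (SE 0.06). miR-125b-5p, also at 6 edits, was at -0.86 (SE 0.13) in run 1 and -0.94 (SE 0.12) in run 2. miR-125a-5p, at 9 edits, was at 1.09 (SE 0.13) and 0.32 (SE 0.07). miR-100-5p, the closest of these at 3 edits, was at 0.07 (SE 0.27) in run 1 and did not pass.

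The siRNA effects of the runs were compared by the interaction of siRNA and run. For miR-10b-5p the effect in run 2 lay 0.40 below that in run 1 on the log2 scale (-0.40, SE 0.10, edgeR adjusted p = 0.00765), against a median of 0.19 over all 378 tested miRNAs. It was the 1 miRNA of the 6 called lower in a comparison in which 8.99% of tested miRNAs were called (3.44% lower and 5.56% higher). Leaving out 1 library moved it between -0.88 and -0.20, and the call ended without run 2 control replicate 3 (-0.21), Tudor-SN replicate 1 (-0.20) or Tudor-SN replicate 2 (-0.25). For miR-10a-5p the difference was -0.27 (SE 0.09, adjusted p = 0.0637), and it passed under each other scaling, tool, filter and block tried (-0.66 to -0.25), among them TMM within each run (-0.43, adjusted p = 0.00105), which put the median of all miRNAs at 0.03. Leaving out 1 library moved it between -0.76 and -0.07: it passed without any 1 of the run 1 libraries and did not pass without any 1 of the run 2 libraries. The other 4 gave 0.12 for miR-10a-3p (SE 0.20, adjusted p = 0.78), 0.56 for miR-10b-3p (SE 0.43, adjusted p = 0.463), 0.19 for miR-196a-5p (SE 0.14, adjusted p = 0.417) and 0.12 for miR-196b-5p (SE 0.12, adjusted p = 0.596). miR-196a-5p passed as higher without run 2 Tudor-SN replicate 3 (0.36, adjusted p = 0.0434), and miR-196b-5p passed as lower without run 1 Tudor-SN replicate 2 (-0.36, adjusted p = 0.0233). Whether the effects on the 4 ratios differed between runs was not tested.

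Between the control groups of the runs, miR-10a-5p and the miR-196 guides differed by more than between siRNAs in either run. In run 2 against run 1 miR-10a-5p was at -1.17 (SE 0.07, edgeR adjusted p = 3.65e-15), miR-196a-5p at -1.83 (SE 0.09, adjusted p = 2.35e-17) and miR-196b-5p at -2.15 (SE 0.08, adjusted p = 4.4e-20) on the log2 scale. miR-10b-5p was at -0.37 (SE 0.07, adjusted p = 1.52e-05), and at -0.36 to -0.24 without each library in turn. Among the 3p arms, miR-10b-3p was at -0.85 (SE 0.34, adjusted p = 0.0243) and miR-10a-3p at -0.09 (SE 0.14, adjusted p = 0.528). Thus 5 of the 6 were lower and 0 higher by edgeR (0 also at an unadjusted p under 0.05) where 79.8% of 302 tested miRNAs were called (35.4% lower and 44.4% higher), and the median of all was 0.18. With library size alone miR-10b-5p (0.12, adjusted p = 0.0493) and miR-10a-3p (0.40, adjusted p = 0.012) turned to higher, and the call of miR-10b-3p ended (-0.35). That call also ended without run 1 control replicate 1 (-0.75), 2 (-0.63) or 3 (-0.86). Without any 1 of the run 2 controls miR-10b-3p was not tested, so 4 of the 6 were lower in each fit without a library.

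Across the 12 libraries, with each run's mean taken out, the miRNAs whose log2 levels followed these most closely were found among the 378 tested over both runs. Pearson r was highest for miR-10a-5p with miR-7974 (0.921), miR-99a-5p (0.919) and miR-125b-5p (0.870). For miR-10a-3p it was highest with miR-629-5p (0.957), miR-25-5p (0.956) and miR-16-2-3p (0.951), and for miR-10b-3p with miR-5096 (0.896), miR-181a-3p and miR-148a-5p (0.884 each). miR-10b-5p followed miR-20a-5p (0.848), miR-9-5p (0.847) and miR-19a-3p (0.810). miR-196a-5p and miR-196b-5p followed each other (0.814) and miR-15b-5p (0.811 and 0.838), and next came miR-15b-3p (0.793) for miR-196a-5p and miR-16-5p (0.806) for miR-196b-5p. Between miR-10a-5p and miR-10b-5p r was near 0, between miR-10a-5p and miR-10a-3p it was 0.761, and between miR-10b-5p and miR-10b-3p it was -0.62. These are descriptions without a test, and the points share libraries, scaling and the siRNA contrast.

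The authors' deposited table gave log2 fold changes of its own. For miR-10a-5p the authors' deposited table had -0.12 in run 1 (adjusted p = 0.215) and -0.49 in run 2 (adjusted p = 7.68e-10). For miR-10b-5p the authors' deposited table had 0.40 (adjusted p = 1.55e-11) and -0.10 (adjusted p = 0.343), and for miR-10a-3p -0.79 (adjusted p = 0.000721) and -0.78 (adjusted p = 1.15e-12). Of the 6, the authors' deposited table thus differed in call from the edgeR fits in miR-10a-5p of run 1, the same call that ended under other settings above.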

How the data were processed

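Small RNA libraries were prepared with TruSeq adapters ligated to both RNA ends and 12 cycles of PCR, per the labels' protocols. Per the submitters' processing notes, both runs used Bowtie2, and run 2 also used cutadapt, DESeq and DESeq2. Genome build, miRNA annotation and the treatment of multiply matching reads were not given in the sources used here. The deposited raw counts per mature miRNA were used for all main tests. The deposited normalized signal, which is the count divided by a size factor per library, was used only in an alternative with limma on log2(value + 1). The deposited RPM values served as a check of the counts. The authors' p-values (adjusted) and log2 fold changes per run were copied for the last comparison.

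The quasi-likelihood F test of edgeR 4.0.16 (R 4.3.3) was run on counts with TMM and filterByExpr (minimum count 10, minimum total 15). P-values were two-sided and Benjamini-Hochberg adjusted over all miRNAs tested, with a threshold of 0.05. Each run was fitted alone. Fits over the 12 libraries had the siRNA and the run, with or without their interaction, and the controls of the runs were compared in a fit of their own. Log2 ratios of counts (pseudocount 0.5) were tested by exact permutation within runs. DESeq2 1.42.0 and limma 3.58.1 served as alternatives, with other scalings, no filter, each library left out in turn, and the replicate number as a block. The edgeR tests of the siRNA were checked on simulated counts in which the most abundant miRNAs, miR-10a-5p and miR-10b-5p among them, were given no change. That check does not cover a change of these guides. Separate cultures are not stated for the replicates, and p-values then measure only spread between libraries that may be technical.

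The miRNAs described, the lists of relatives, other HOX miRNAs and markers, and the tests were chosen with earlier results of these data known. All 6 miRNAs, all members of those lists and, for each of the 6, the 3 miRNAs of highest Pearson r were to be named.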

Additional observations from a re-analysis of the deposited data

Results flagged for a closer look

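The effect of Tudor-SN siRNA on miR-10b-5p differed between the runs in the test of that difference (log2 difference -0.40, run 2 minus run 1, edgeR interaction adjusted p = 0.00765). In run 1 the 3 Tudor-SN libraries lay above all controls, at 200598 ± 2876 against 165762 ± 7737 CPM (SD, n = 3). In run 2 it stood at 186264 ± 12492 CPM in the controls and 164848 ± 17779 CPM in the Tudor-SN libraries, and the groups overlapped. The median of the same difference over all tested miRNAs was 0.19, and it was 0.03 with TMM within each run, where miR-10b-5p was at -0.56 (adjusted p = 8.59e-05). Leaving out 1 library moved it between -0.88 and -0.20, and the call ended without run 2 control replicate 3 (-0.21, adjusted p = 0.17), Tudor-SN replicate 1 (-0.20, adjusted p = 0.206) or Tudor-SN replicate 2 (-0.25, adjusted p = 0.123). RNA fraction, size selection, sequencer and depth changed with the run, and their part in the difference cannot be told apart.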

How the results depend on the processing

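Of the values for single miRNAs under the alternatives, 372 kept their side of the threshold, 30 newly passed and 21 no longer passed. The remaining 3 changed sign with a call in the reported fit, under the alternative or in both. Of the 372, 62 changed sign while passing neither in the reported fit nor under the alternative, most often the miR-196 guides over both runs and between runs and miR-10a-3p between runs, so no direction is read from these. The 3 sign changes with a call include miR-196b-5p between runs without run 1 Tudor-SN replicate 2 (-0.36). The others were miR-10a-3p (0.40) and miR-10b-5p (0.12) between control groups with library size alone. Of these, miR-10b-5p alone was also called in the reported fit (edgeR adjusted p = 1.52e-05). miR-196b-5p (adjusted p = 0.596) and miR-10a-3p (adjusted p = 0.528) were not called there. The cause was not tested. Of the counts and ratios, 283 values stayed the same or close, 66 moved and 3 no longer passed. Close includes shifts such as from 51 to 58 miRNAs lower in run 1 with the replicate block.

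With no filter on low counts, 1 of the 6 miRNAs was lower in run 1. In run 2 the number lower was 2 to 4 over the fits without a library. Over both runs 1 was higher with RLE scaling, with no filter and with DESeq2, and 0 to 1 over the fits without a library. For the difference between runs, 2 were lower with library size alone, with scaling without miR-10a-5p, RLE, no filter, DESeq2, the replicate block and TMM within each run. Over the fits without a library 0 to 3 were lower and 0 to 1 higher, and the difference of miR-196b-5p ranged from -0.36 to 0.32. The miRNAs with a higher and a lower effect in run 2 numbered 21 and 13. They numbered 9 and 52 with scaling without miR-10a-5p, 10 and 34 with RLE, 10 and 29 with DESeq2, 13 and 31 with TMM within each run, and 7 to 67 and 4 to 65 over the fits without a library. With no filter 13 were higher. These fits also moved the median of all tested miRNAs, from -0.32 to 0.40 over the fits without a library, and calls on this difference depend on the scaling. Between control groups, library size alone gave 2 of the 6 higher and 3 lower.

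The log2 difference (Tudor-SN minus control) of the ratio of miR-10a-5p to miR-10b-5p was -0.52 in run 1 alone and -0.39 in run 2 alone. That of the ratio of 3p to 5p was -0.69 and -0.30 for miR-10a, and -1.36 and -0.40 for miR-10b. Without each library in turn, the difference for the paralogs stayed between -0.49 and -0.43.

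Whether replicate numbers pair the libraries is not settled by these values, and the main tests used no pairing. Same-numbered libraries correlated at 0.143, 0.140 and 0.0814 in run 1 and at 0.0439, 0.0526 and 0.0720 in run 2. Each run 1 control correlated best with its own number. So did run 2 controls 1 and 3, while run 2 control 2 correlated best with Tudor-SN replicate 1 (0.0901). With the replicate block 32 miRNAs had a higher and 23 a lower effect in run 2. With labels flipped within numbers as a block, the ratio of miR-10a-5p to miR-10b-5p (-0.46, adjusted exact p = 0.0625) and those of 3p to 5p for miR-10a (-0.49, adjusted exact p = 0.0625) and miR-10b (-0.88, adjusted exact p = 0.0833) did not pass, in a design whose smallest p is 0.03125. With the block in edgeR miR-10b-3p passed in run 1 (-1.04, adjusted p = 0.0314) and miR-10b-5p in run 2 (-0.18, adjusted p = 0.00462). In run 1 miR-10b-3p reached the test through its controls alone.

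Depth limits the 3p arms most, with 6 to 11 counts of miR-10b-3p in the run 1 controls.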
